A study of Mus musculus and Acomys cahirinus with 16 samples.

Results

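Antimicrobial proteins of the epidermis were followed at the transcript level through 10 genes listed by symbol: Slpi, Pi3, Lcn2, Ltf, Pglyrp1, Camp, Saa3, Defb1, Defb3 and Defb6. Of these, 9 were matched in each of the gene tables, among 56980 genes for mouse and 19818 for spiny mouse. Pi3, the gene of the protease inhibitor elafin, was matched in neither and was not analysed here. The genes were chosen by symbol with their measured levels and treatment changes in these same samples in view, so those levels and changes are given as a description, without p-values.

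RNA was sequenced from skin of Mus musculus, the laboratory mouse, and Acomys cahirinus, the spiny mouse, an African rodent studied for its skin regeneration. Each species had 1 untreated group and 1 group treated with DMBA/TPA, with 4 samples in each of these 4 groups. DMBA is a DNA-damaging carcinogen and TPA a phorbol ester that promotes tumour growth, and both are painted on skin in the classical model of skin carcinogenesis. The title of the series concerns resistance of spiny mice to squamous carcinogenesis under this regimen. Strain, age, sex, dose, duration and whether the treated skin held tumours are not given in the sample labels, and the series' own design note speaks of irradiated fibroblasts, so the labels were followed. The labels do not say whether the samples came from separate animals, so the p-values measure the spread between these samples, which may be technical. In bulk skin, a larger number of cells of a type and more RNA per cell cannot be told apart.

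Antimicrobial proteins form a chemical barrier on skin, made partly by keratinocytes and partly by neutrophils that enter inflamed tissue. Beta-defensins and cathelicidin disrupt microbial membranes, lipocalin-2 and lactoferrin withhold iron, and peptidoglycan recognition proteins bind the bacterial cell wall. Many are low in resting epidermis and are induced in keratinocytes by cytokines such as interleukin-17, interleukin-22 and interleukin-1, with transcription factors of the NF-kB, C/EBP, STAT and AP-1 families among the known mediators. Kallikrein proteases in the epidermis cut the cathelicidin precursor into active peptides.

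For the mouse genes, the 250 bases before the annotated start were read from the GRCm39 genome, at 1 canonical start for each gene. Through another annotated start, 197 bases of the Lcn2 window and 73 of the Pglyrp1 window are exon bases of the same gene. The Saa3 window (chr7:46365577-46365826, minus strand) lies before a start outside the counted Saa3 gene, which ends at 46365124. The bases next to the start of the counted Saa3 gene were therefore not searched. Slpi is shown because its transcript was higher in treated skin of both species, and the neighbouring genes Defb3 and Defb6 because their windows are alike while their transcripts differed in level and change. Capitals mark a C/EBP motif (TTGCNNAA on either strand) and, in Defb6, also a motif of the NF-kB type.
Slpi, chr2:164198428-164198677, minus strand: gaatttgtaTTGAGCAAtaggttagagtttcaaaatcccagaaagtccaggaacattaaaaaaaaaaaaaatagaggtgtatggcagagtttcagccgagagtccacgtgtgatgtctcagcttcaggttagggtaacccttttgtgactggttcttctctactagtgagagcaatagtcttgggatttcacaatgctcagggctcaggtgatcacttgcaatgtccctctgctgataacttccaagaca
Defb3, chr8:19343126-19343375, plus strand: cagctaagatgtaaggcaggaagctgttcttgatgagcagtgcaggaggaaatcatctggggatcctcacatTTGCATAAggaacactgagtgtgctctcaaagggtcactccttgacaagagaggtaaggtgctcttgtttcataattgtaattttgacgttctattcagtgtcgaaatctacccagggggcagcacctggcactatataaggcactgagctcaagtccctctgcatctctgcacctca
Defb6, chr8:19275244-19275493, plus strand: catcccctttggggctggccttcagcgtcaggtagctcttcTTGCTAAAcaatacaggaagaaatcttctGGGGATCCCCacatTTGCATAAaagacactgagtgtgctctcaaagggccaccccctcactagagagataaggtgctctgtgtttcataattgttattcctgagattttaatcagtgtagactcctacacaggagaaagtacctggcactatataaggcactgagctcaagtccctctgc

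In a global alignment the Defb3 and Defb6 windows shared 194 of 264 columns (73.5%), and the next most alike pair among the 9 genes reached 50.7%. Both hold the C/EBP letters TTGCATAA, which lie 178 to 171 bases before the start of Defb3 and 166 to 159 bases before that of Defb6. A C/EBP motif was found in the windows of 7 of the 9 genes (Slpi, Lcn2, Ltf, Camp, Defb1, Defb3 and Defb6), and in 9.34% of 21770 windows of the same length at protein-coding genes. The NF-kB motif was found in 3 (Lcn2, Pglyrp1 and Defb6), against 4.23% of all windows, with the letters GGAATGTCCC in Lcn2 and GGAAAGTCCC in Pglyrp1. STAT (TTCNNNGAA) and AP-1 (TGANTCA) letters were in none of the 9 windows and in 7.70% and 6.17% of all windows. Both strands were searched, and the matches did not overlap each other. A match describes the letters only and is not a binding site.

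The mouse libraries held 19608787 to 30198281 counts each and the spiny mouse libraries 21143918 to 30561256. Levels are library-size-scaled counts (CPM) adjusted by TMM factors, and levels of different genes are compared as RPKM, which is CPM per kilobase of gene length. A level that rests on 3 counts lay between 0.109 and 0.158 CPM in mouse and between 0.102 and 0.137 CPM in spiny mouse, and covers counting error only. A gene was called where the quasi-likelihood test of edgeR gave an adjusted p under 0.05 over all genes tested. Of the 9 genes, 7 passed the low-count filter in mouse (Ltf and Camp did not) and 6 in spiny mouse (Defb3, Defb6 and Saa3 did not).

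In mouse, 4 of the 7 tested genes were called, all higher in treated skin (Slpi, Lcn2, Defb3 and Saa3). Over all 19740 mouse genes in the fit the called share was 61.2%, with 25.9% higher and 35.3% lower. In spiny mouse all 6 tested genes were called, Slpi, Lcn2, Ltf and Pglyrp1 higher and Camp and Defb1 lower. The called share of the 14833 genes in that fit was 55.1%, with 28.2% higher and 26.9% lower. The median log2 change of the tested antimicrobial genes was 3.98 in mouse, beside -0.15 over all genes, and 2.16 in spiny mouse, beside -0.01. In mouse, the treated samples lay wholly above the untreated ones for 4 of these 7 genes and wholly below for 0. Over all mouse genes in the fit 58.6% were separated in this way, 26.6% with treated samples above and 32.0% below. In spiny mouse the treated samples lay wholly above for 4 of the 6 genes and wholly below for 1, beside 50.9% of all genes, 26.7% above and 24.1% below. The antimicrobial genes were chosen with these changes in view, so their counts and medians beside those of all genes are no test of the set. Defb3 passed the mouse filter through its treated samples alone, with 0 to 8 untreated and 36 to 111 treated counts.

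**Figure D1:**
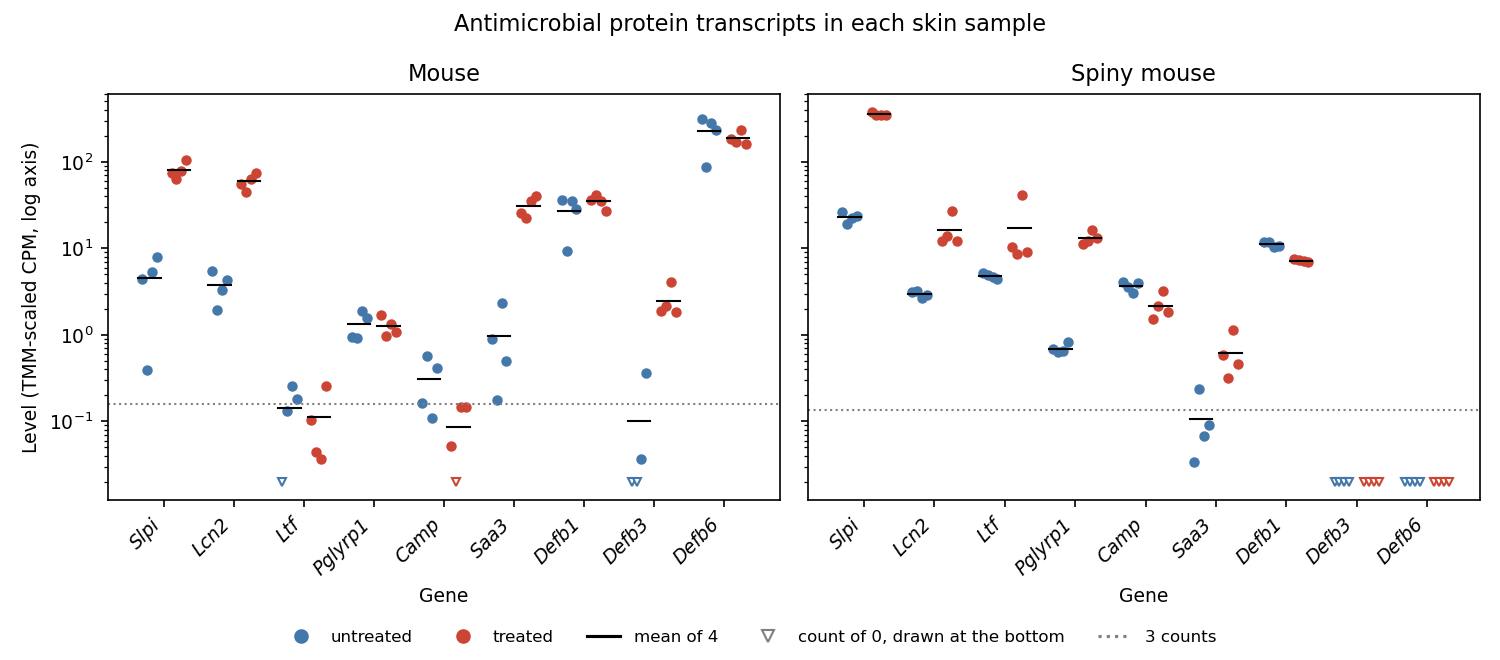
Level of each antimicrobial gene in every sample, as TMM-scaled CPM on a log axis, for mouse (left) and spiny mouse (right). Points are samples, black lines are means of 4, open triangles are counts of 0 drawn at the bottom, and the dotted line is the highest level that 3 counts gave. Slpi and Lcn2 were higher in every treated sample of both species, Pglyrp1 was higher in treated samples of spiny mouse and overlapped in mouse, and Defb3 and Defb6 were at 0 in all spiny mouse samples.

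Slpi encodes secretory leukocyte protease inhibitor, which blocks neutrophil elastase and has antimicrobial activity of its own. In mouse (ENSMUSG00000017002, chromosome 2, 164195990 to 164231015, minus strand) untreated replicates 1 to 4 had 4.48, 0.395, 5.35 and 7.97 CPM, and treated replicates had 74.0, 64, 77.9 and 106 CPM. The lowest treated sample was above the highest untreated sample, and untreated replicate 2 was far below the other untreated samples. The log2 fold change was 4.15 (SE 0.60). In spiny mouse (scaffold_1, 70774115 to 70817353, plus strand) the untreated samples had 26.3, 19.2, 22.7 and 23.9 CPM and the treated samples 377, 350.3, 350.3 and 349 CPM. Replicates were close together in both spiny mouse groups, and the log2 fold change was 3.95 (SE 0.10). The ratio of the group means was 17.7 in mouse and 15.5 in spiny mouse.

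Lcn2 encodes lipocalin-2, which binds the iron-carrying siderophores of bacteria. Mouse Lcn2 (ENSMUSG00000026822, chromosome 2, 32274645 to 32278264, minus strand) had 5.42, 1.93, 3.33 and 4.33 CPM in untreated and 55.6, 45.1, 62.7 and 74.4 CPM in treated skin, a log2 fold change of 3.98 (SE 0.30). In spiny mouse (scaffold_10, 50683318 to 50687334, plus strand) it had 3.13, 3.21, 2.69 and 2.88 CPM in untreated and 12.2, 14.01, 27.0 and 12.3 CPM in treated skin, a log2 fold change of 2.46 (SE 0.27). The groups did not overlap in either species, and treated spiny mouse replicate 3 was well above the rest of its group.

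Ltf encodes lactoferrin, an iron-binding protein of secretions and of neutrophil granules. Mouse Ltf (ENSMUSG00000032496, chromosome 9, 110848339 to 110871835) did not pass the filter, with 0 to 7 counts in each of the 8 samples. Spiny mouse Ltf (scaffold_14, 12441185 to 12463121, minus strand) had 5.21, 4.96, 4.70 and 4.39 CPM in untreated skin and 10.4, 8.504, 41.7 and 9.09 CPM in treated skin. Every treated sample was above every untreated one, and replicate 3 was far above the other treated samples. The log2 fold change was 1.86 (SE 0.51), and 0.95 without that replicate, still called. The same library was the highest of its group for Lcn2, Pglyrp1, Camp and Saa3, and for Ngp, a neutrophil granule gene, at 3.99 CPM against 0.393 to 0.731 CPM in the other treated samples. Other neutrophil markers were mixed. Without this library the ratio of group means went from 36.4 to 41.98 for Mpo and from 5.855 to 5.984 for Csf3r. It went from 38.18 to 33.15 for Fpr1 and from 19.04 to 17.84 for Cxcr2. The library also had the highest neutrophil marker sum of its group (164 CPM, the others 127 to 145) and the highest hair follicle sum (3480 CPM, the others 204 to 1350). Whether neutrophil content had a part in the Ltf value was not tested.

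Pglyrp1 encodes a secreted peptidoglycan recognition protein that kills bacteria. In mouse (ENSMUSG00000030413, chromosome 7, 18605256 to 18624384) its untreated levels of 0.936, 0.921, 1.91 and 1.55 CPM overlapped the treated levels of 1.68, 0.967, 1.35 and 1.08 CPM, and the log2 change was -0.08 (SE 0.33), not called. In spiny mouse (scaffold_19, 7325016 to 7329705, minus strand) untreated skin had 0.680, 0.635, 0.647 and 0.823 CPM and treated skin 11.1, 12.2, 16.2 and 13.1 CPM, with no overlap. The log2 fold change there was 4.24 (SE 0.17), the highest of the 6 genes tested in that species.

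Camp encodes the cathelicidin precursor, stored in neutrophils and made by keratinocytes. Mouse Camp (ENSMUSG00000038357, chromosome 9, 109676447 to 109678685) did not pass the filter and had 3 to 13 counts in the untreated and 0 to 4 counts in the treated samples. In spiny mouse (scaffold_14, 13628225 to 13630069) the levels were 4.05, 3.53, 3.06 and 3.93 CPM in untreated and 1.55, 2.14, 3.18 and 1.83 CPM in treated skin. Treated replicate 3 lay within the untreated range, so the groups overlapped. The log2 change was -0.73 (SE 0.23), called lower, and the call was lost when untreated replicate 1 or 4, or treated replicate 1, 2 or 4, was left out, with values from -0.60 to -0.72.

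Saa3 encodes an acute-phase serum amyloid A protein made locally in inflamed tissue. In mouse (ENSMUSG00000040026, chromosome 7, 46361422 to 46365124, minus strand) it had 0.896, 0.175, 2.31 and 0.501 CPM in untreated and 25.7, 22.2, 35.5 and 40.3 CPM in treated skin. The log2 fold change of 4.95 (SE 0.56) was the highest of the 7 genes tested in mouse, and was 5.92 without untreated replicate 3. In spiny mouse (scaffold_12, 61969193 to 61972507) Saa3 did not pass the filter, with 1, 6, 2 and 2 counts in untreated and 13, 9, 31 and 10 counts in treated skin. The treated counts were all above the untreated ones at a low level.

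The 3 beta-defensins behaved differently from each other in mouse. Defb6 (ENSMUSG00000050756, chromosome 8, 19275494 to 19278225, plus strand) ranked 29th from the top among the tested mouse genes by RPKM in untreated skin and 72nd in treated skin. It had 309.9, 86.1, 282 and 232 CPM in untreated and 184, 172, 234 and 161 CPM in treated skin. The groups overlapped, also without untreated replicate 2, since treated replicate 3 was above untreated replicate 4. The log2 change was -0.28 (SE 0.34), not called. Without untreated replicate 2 the change was -0.46 and was called lower. Defb1 (ENSMUSG00000044748, chromosome 8, 22266615 to 22285201, plus strand), the beta-defensin known for steady expression in epithelia, had 36.2, 9.30, 35.5 and 28.4 CPM in untreated and 36.1, 40.9, 35.1 and 27.4 CPM in treated mouse skin. Untreated replicate 2 was again the lowest and the groups overlapped, with a log2 change of 0.35 (SE 0.35), not called.

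Defb3 (ENSMUSG00000039775, chromosome 8, 19343376 to 19345307, plus strand) had 0, 0, 1 and 8 counts in untreated mouse skin and 36, 49, 111 and 50 counts in treated skin. These are 0, 0, 0.0366 and 0.364 CPM against 1.89, 2.15, 4.04 and 1.86 CPM, with no overlap. Its fitted log2 change of 4.64 (SE 0.81) rests on an untreated group with 2 samples at 0, and was 7.09 without untreated replicate 4, which held 8 of the 9 untreated counts. The transcript of Defb6, whose window resembles that of Defb3 most closely, was above 86 CPM in every mouse sample.

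In spiny mouse, Defb1 (scaffold_13, 104344369 to 104362928, plus strand) had 11.9, 12.0, 10.4 and 10.6 CPM in untreated and 7.51, 7.29, 7.06 and 6.90 CPM in treated skin. All treated samples were below all untreated ones, with a log2 change of -0.64 (SE 0.09). Defb3 and Defb6 were listed at 0 in all 8 spiny mouse samples. Their annotated models lie at 1 locus of scaffold_13 (104241931 to 104244375 for Defb3 and 104241916 to 104247687 for Defb6), where they share 93.9% and 95.3% of their exon bases with the models of other beta-defensins (Defb4, Defb5, Defb7, Defb8 and Defb46). Fragments that fall on more than 1 gene were not counted, so these zeros cannot be read as absence of the transcripts. Of 35 spiny mouse genes named as beta-defensins, 11 share over 50% of their exon bases with another defensin, and all 11 were at 0. Of the other 24, 14 were at 0 as well. Of the 42 mouse beta-defensin genes none overlapped another, and 18 had counts.

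**Figure D2:**
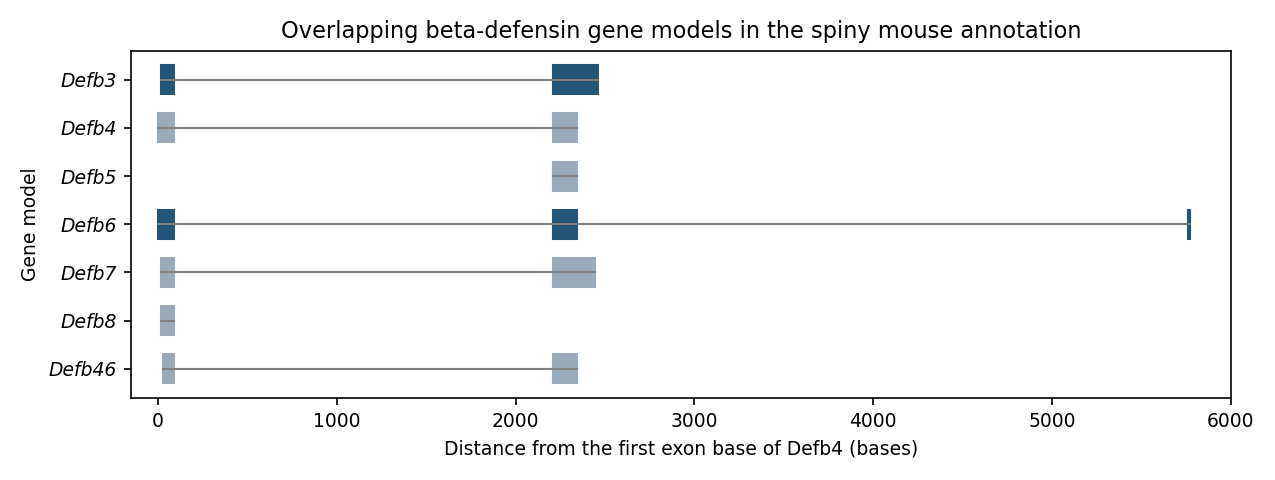
Exons (boxes) of the 7 overlapping beta-defensin models at the spiny mouse locus that holds Defb3 and Defb6 (dark), by distance in bases from the first exon base of Defb4. The boxes of the 7 models stack at the same 2 places, and the one box that stands apart is the last exon of Defb6.

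The make-up of these transcripts was read as shares of the summed RPKM of the 9 genes, with each species scaled on its own. The spiny mouse values leave out the transcripts of Defb3 and Defb6, which could not be counted, so these shares and sums are not compared between the species. In untreated mouse skin Defb6 made up 94.9% ± 0.50 of the sum (SD, n = 4) and Defb1 4.15% ± 0.26. In all 4 samples the Defb6 share lay between 94.2% and 95.3%, although its level in replicate 2 was far below the others. In treated mouse skin Defb6 made up 79.0% ± 3.33, Slpi 9.46% ± 2.71, Defb1 5.52% ± 1.15, Lcn2 3.12% ± 0.76, Saa3 1.63% ± 0.47 and Defb3 1.20% ± 0.32. The summed RPKM was 743 ± 325 in untreated and 733 ± 102.1 in treated mouse skin, which overlapped.

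In untreated spiny mouse skin Slpi made up 44.7% ± 3.66 of the sum, Defb1 27.7% ± 2.32, Camp 13.3% ± 0.995, Lcn2 7.45% ± 0.66, Ltf 4.14% ± 0.32 and Pglyrp1 2.30% ± 0.28. After treatment Slpi held 84.6% ± 4.35, Pglyrp1 5.27% ± 0.73, Lcn2 4.92% ± 1.90, Defb1 2.16% ± 0.12 and Camp 0.959% ± 0.278. The summed RPKM was 43.4 ± 3.12 in untreated and 357 ± 17.5 in treated spiny mouse skin, with no overlap. Over the 7 genes other than Defb3 and Defb6, a sum taken after the values were seen, mouse skin had 38.2 ± 16.9 RPKM untreated and 144 ± 16.6 RPKM treated. Of that sum Defb1 made up 81.8% ± 3.98 in untreated and 28.5% ± 7.43 in treated mouse skin, and Slpi 8.90% ± 5.48 and 47.1% ± 4.98. On the same 7 genes Slpi made up the 44.7% and 84.6% given for spiny mouse, whose sums do not change. These sums and shares rest on annotated gene lengths, which differ between the species for some genes. Lcn2 has 2623 bases in mouse and 922 in spiny mouse, Saa3 2606 and 529, and Pglyrp1 1837 and 698. Slpi has 1180 and 1183. A longer annotated gene gives a lower RPKM at the same CPM, so part of a species difference in shares can come from the annotation.

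**Figure D3:**
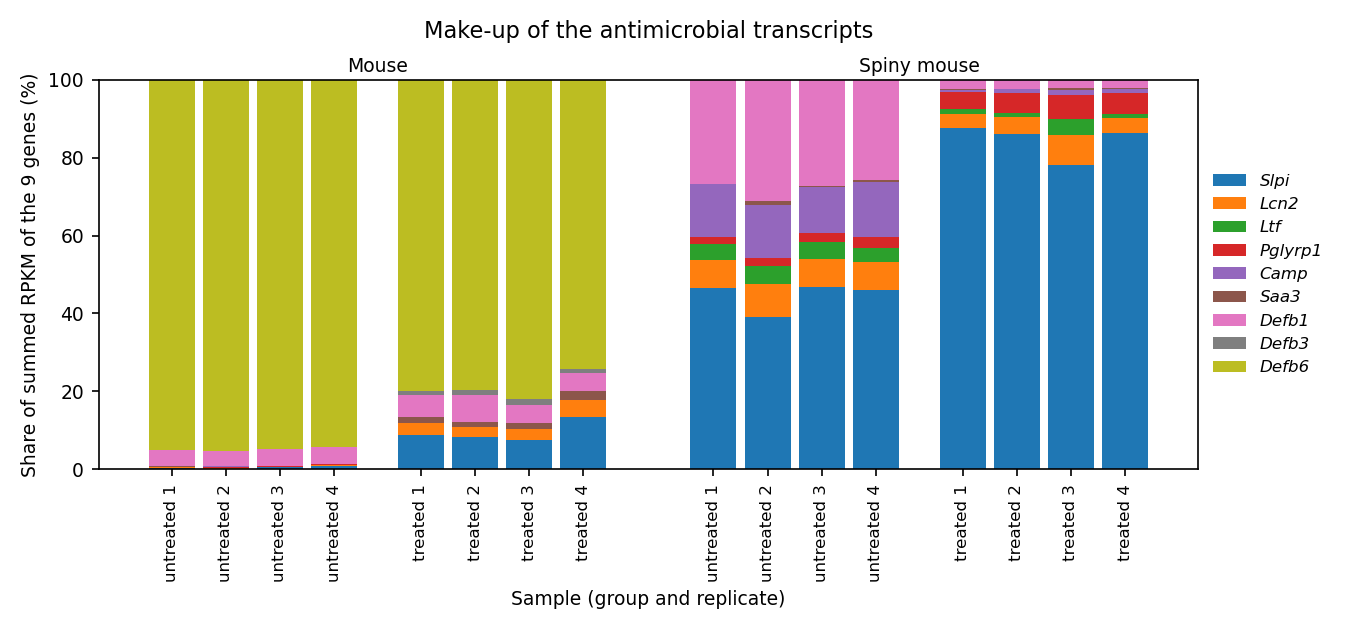
Share of the summed RPKM of the 9 antimicrobial genes taken by each gene, in percent, 1 bar for each sample. Defb6 fills most of every mouse bar, between 74.2% and 95.3%, and Slpi fills 39.2% to 46.9% of the untreated and 78.2% to 87.7% of the treated spiny mouse bars, in which Defb3 and Defb6 could not be counted.

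Per kilobase, the order in untreated mouse skin was Defb6 at 704 ± 309 RPKM, Defb1 at 31.3 ± 14.4, Slpi at 3.86 ± 2.66, Lcn2 at 1.43 ± 0.57 and Pglyrp1 at 0.723 ± 0.263 RPKM, with the rest lower. The ranges of Defb6, Defb1 and Slpi did not overlap, and those of Slpi and Lcn2, and of Lcn2 and Pglyrp1, did. In treated mouse skin the order was Defb6 at 581 ± 100, Slpi at 68.3 ± 15.4, Defb1 at 40.0 ± 6.42, Lcn2 at 22.7 ± 4.69, Saa3 at 11.9 ± 3.24 and Defb3 at 9.03 ± 3.80 RPKM, and among these neighbours only Saa3 and Defb3 overlapped. In untreated spiny mouse skin Slpi (19.4 ± 2.50 RPKM), Defb1 (12.0 ± 0.89), Camp (5.77 ± 0.71), Lcn2 (3.23 ± 0.26), Ltf (1.80 ± 0.13) and Pglyrp1 (0.997 ± 0.124) followed each other without overlap. In treated spiny mouse skin Slpi stood at 301 ± 11.2 RPKM, rank 165 from the top, above Pglyrp1 (18.8 ± 3.14) and Lcn2 (17.7 ± 7.73), whose ranges overlapped. These orders depend on the annotated gene lengths. By mean CPM, Lcn2 (59.4) stood above Defb1 (34.8) in treated mouse skin.

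The difference between the species was fitted as the treatment change in spiny mouse minus that in mouse over 13656 symbols tested in both, of which 46.1% were called, 21.4% higher and 24.7% lower. Of the 4 antimicrobial genes in this fit, Pglyrp1 was called higher (difference 4.32, SE 0.35) and Lcn2 lower (-1.53, SE 0.41). For Slpi the difference was -0.19 (SE 0.58), and for Defb1 -0.99 (SE 0.40), both not called. The Defb1 difference was called without mouse untreated replicate 1, 2 or 3, without mouse treated replicate 4, and also with DESeq2, with its size factors and with no low-count filter, at -0.79 to -1.22. With another scaling, higher genes made up 36.9% to 66.2% of all calls in this fit, against 46.4% with TMM. In mouse they made up 28.6% to 48.4%, against 42.4%.

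**Figure D4:**
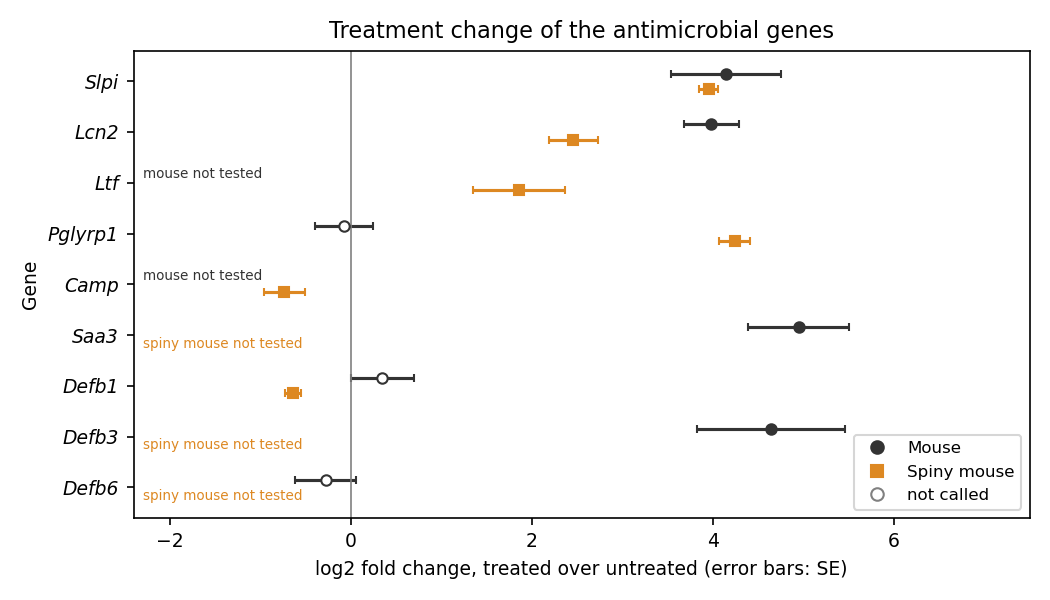
Log2 fold change of each antimicrobial gene, treated over untreated, in mouse (dark circles) and spiny mouse (orange squares), with standard errors as bars. Open symbols were not called, and genes that did not pass the filter are written as not tested. The 2 species lie side by side for Slpi (4.15 and 3.95) and far apart for Pglyrp1 (-0.08 and 4.24).

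Other antimicrobial genes were read from a list of 29. In mouse 11 of the 21 tested were higher and 5 lower, with a median log2 change of 1.12, and in spiny mouse 7 of the 15 tested were higher and 3 lower, with a median of 0.05. Over all genes 25.9% were higher and 35.3% lower in mouse, and 28.2% and 26.9% in spiny mouse. Wfdc21 (log2 change -2.13) and Lyz1 (-1.66) were among the falls in mouse. Those in spiny mouse were Nos2 (-1.93), Rnase6 (-1.09) and Wfdc2 (-0.87). S100a8 and S100a9, which form the metal-binding protein calprotectin, rose in both species. In mouse S100a8 went from a range of 1.23 to 18.4 CPM to one of 438 to 911 CPM (log2 fold change 6.27, SE 0.73, edgeR adjusted p 0.000125). In spiny mouse it went from 59.7 to 88.9 CPM up to 1495 to 1857 CPM (4.56, SE 0.16, edgeR adjusted p 2.01e-06). S100a9 rose by 6.34 (SE 0.60, edgeR adjusted p 4.06e-05) and by 6.41 (SE 0.30, edgeR adjusted p 3.54e-06) in mouse and spiny mouse. The change of S100a8 was lower in spiny mouse than in mouse (difference -1.72, SE 0.65, edgeR adjusted p 0.0418), and that of S100a9 was not called different (0.07, SE 0.58, edgeR adjusted p 0.935).

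Among further defensins, mouse Defb4 had at most 1 count in each untreated sample and 5.57 to 9.28 CPM in treated skin. Like Defb3 it passed the mouse filter through its treated samples alone, so its rise is given without a p-value. Defb8 fell in mouse, from 0.774 to 8.14 CPM in untreated to 0.182 to 0.528 CPM in treated skin (log2 change -3.47, SE 0.66, edgeR adjusted p 0.00184). Defb14 rose in both species, by 1.76 in mouse (SE 0.43, edgeR adjusted p 0.00605) and by 2.44 in spiny mouse (SE 0.40, edgeR adjusted p 0.000831). Its levels were 1.10 to 6.51 CPM in untreated and 9.87 to 17.4 CPM in treated mouse skin, and 1.05 to 3.74 and 7.61 to 18.1 CPM in spiny mouse.

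3 genes of this list had a treatment change that was lower in spiny mouse than in mouse by more than 2 on the log2 scale. S100a7a, a psoriasin-family gene, rose in mouse from 0.326 to 5.09 CPM up to 78.2 to 95.1 CPM, and had 0.613 to 7.04 CPM in untreated and 0.143 to 2.34 CPM in treated spiny mouse skin (difference -7.45, SE 1.15, edgeR adjusted p 0.000107). The ratio of its mouse group means was 50.4, and 146.6 without untreated replicate 2, which also stood apart in hair follicle markers. Wfdc12, which like Slpi carries a whey acidic protein domain, rose by 4.801 in mouse and 0.94 in spiny mouse (difference -3.86, SE 0.49). It passed the mouse filter through its treated samples alone, so no p-value is given. Its treated levels were 3.30 to 6.88 CPM in mouse and 2.59 to 5.32 CPM in spiny mouse. Its untreated levels were 0.0814 to 0.330 CPM in mouse, from 2, 6, 9 and 3 counts, and 1.55 to 2.28 CPM in spiny mouse. The difference thus rests on a low untreated level in mouse, while the treated ranges overlapped. Pglyrp3, a relative of Pglyrp1 found in epithelia, rose in mouse from 2.19 to 6.79 CPM up to 24.7 to 29.5 CPM, and had 5.79 to 8.46 and 4.71 to 9.08 CPM in untreated and treated spiny mouse skin (difference -2.398, SE 0.39, edgeR adjusted p 0.000182). Pglyrp1 and Pglyrp3 thus each rose in a different species.

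The cytokines, receptors and regulators that induce these genes were read from a list of 25. In mouse 11 of 22 tested were higher and 0 lower, with a median log2 change of 0.35, and in spiny mouse 13 of 20 were higher and 2 lower, with a median of 0.62. The called share in both directions together was 61.2% over all mouse genes, above that of the list, and 55.1% over all spiny mouse genes. The interleukin-17 family cytokines Il17c and Il17f rose in mouse, Il17c by 2.39 (SE 0.66, edgeR adjusted p 0.0119) to 0.408 to 1.68 CPM and Il17f by 3.28 (SE 0.76) to 0.483 to 1.21 CPM. Il17f had 5, 3, 0 and 0 counts in untreated mouse skin. It passed the mouse filter through its treated samples alone, so its rise is given without a p-value. The mouse groups overlapped for Il17c, whose ratio of group means was 5.33, and 10.1 without untreated replicate 2. Il17c and Il17f did not pass the filter in spiny mouse. There Il17c had 0.0681 to 0.204 CPM in untreated and 0.320 to 0.842 CPM in treated skin, and Il17f at most 0.0715 CPM. The ratio of the spiny mouse group means of Il17c was 5.12, with no overlap, so its missing call there reflects the filter. Il17a did not pass the filter in either species, with at most 0.420 CPM, and neither did Il22, which was at 0 in untreated mouse skin and at 0.0440 to 0.578 CPM in treated mouse skin. Il36g, an epidermal cytokine of the interleukin-1 family, rose in mouse by 2.09 (SE 0.32, edgeR adjusted p 0.000547) and was not matched in spiny mouse.

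In spiny mouse, the inflammatory cytokines Il1b, Osm and Il6 rose. Il1b went from 3.13 to 7.83 CPM up to 63.4 to 106 CPM there (4.09, SE 0.28, edgeR adjusted p 1.24e-05), and had 1.49 to 10.0 CPM in untreated and 5.45 to 10.5 CPM in treated mouse skin (0.26, SE 0.46, edgeR adjusted p 0.643). Oncostatin M (Osm) went from 0.340 to 0.777 CPM up to 10.8 to 22.5 CPM in spiny mouse (5.03, SE 0.32, edgeR adjusted p 9.9e-06) and lay between 0.395 and 1.34 CPM in all mouse samples. Il6 went from 1.16 to 2.06 CPM up to 20.4 to 39.7 CPM in spiny mouse (4.39, SE 0.26, edgeR adjusted p 8.53e-06), and did not pass the filter in mouse. The species differed in the change of Il1b (difference 3.83, SE 0.56, edgeR adjusted p 6.58e-05) and of Osm (4.70, SE 0.55, edgeR adjusted p 1.02e-05). Tnf rose by 1.19 in spiny mouse (SE 0.32, edgeR adjusted p 0.0114) and changed by -0.33 in mouse (SE 0.33, edgeR adjusted p 0.395). Nfkbiz, the cofactor through which interleukin-17 acts on Lcn2 and defensin genes, was not called in mouse (0.26, SE 0.14, edgeR adjusted p 0.121) or in spiny mouse (-0.30, SE 0.12, edgeR adjusted p 0.0581), while the difference between the species was called (-0.56, SE 0.19, edgeR adjusted p 0.0226).

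**Figure D5:**
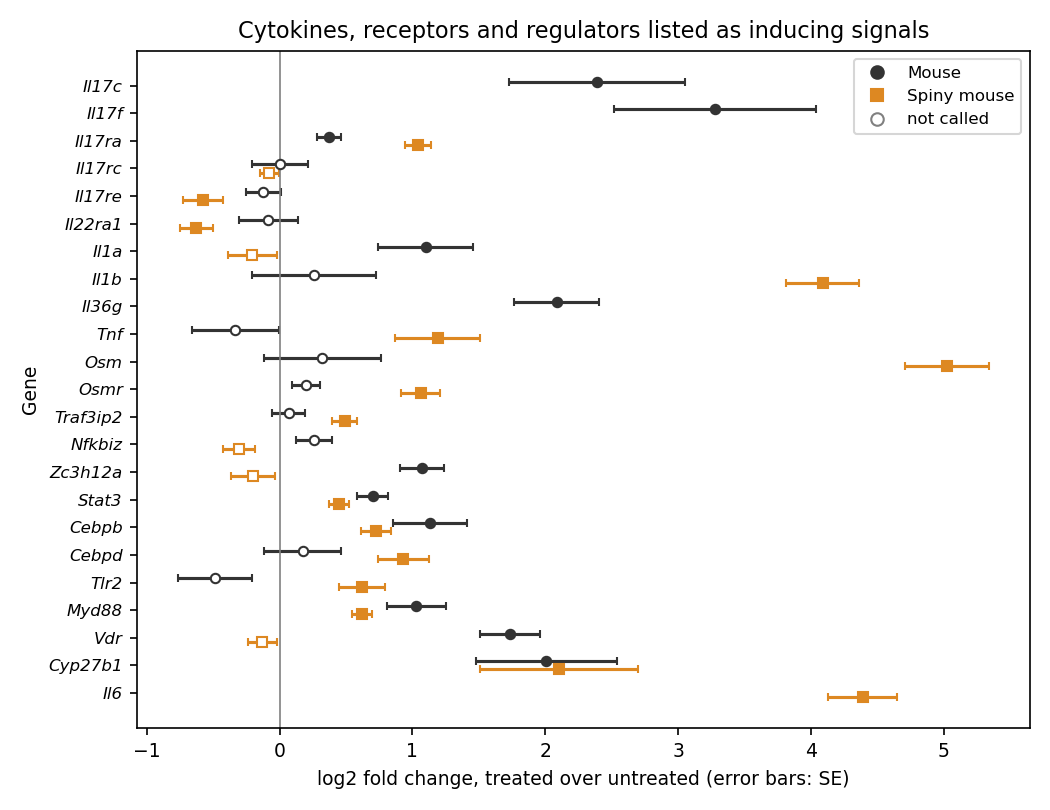
Log2 fold change, treated over untreated, of the tested genes listed as inducing signals, in mouse (dark circles) and spiny mouse (orange squares), with standard errors as bars. Open symbols were not called, and a gene with 1 symbol was tested in 1 species. Il17c, Il17f and Il36g have a mouse symbol alone at 2.39, 3.28 and 2.09. In spiny mouse Il17c and Il17f did not pass the filter, and Il36g was not matched. Il1b and Osm lie near 0 in mouse and at 4.09 and 5.03 in spiny mouse.

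Receptors and processing proteases of these proteins were read from a list of 16, of which 5 of 13 tested were higher and 2 lower in mouse, and 5 of 12 higher and 3 lower in spiny mouse, with median log2 changes of 0.60 and 0.10. The called share over all genes was 61.2% in mouse and 55.1% in spiny mouse. Trem1, a receptor of myeloid cells to which Pglyrp1 protein binds, rose in spiny mouse from 0.170 to 0.503 CPM up to 5.23 to 12.5 CPM (4.31, SE 0.38, edgeR adjusted p 3.76e-05). In mouse it had 0.263 to 1.05 CPM in untreated and 0.571 to 2.19 CPM in treated skin (0.60, SE 0.54, edgeR adjusted p 0.355), and the species difference was 3.71 (SE 0.69, edgeR adjusted p 0.000494). In the spiny mouse annotation 42.2% of the Trem1 exon bases overlap Dst. Slc22a17, a receptor for lipocalin-2, fell in mouse from 12.3 to 21.0 CPM down to 7.93 to 10.1 CPM (-0.75, SE 0.20, edgeR adjusted p 0.00882), and in spiny mouse from 20.2 to 24.5 CPM down to 7.96 to 10.9 CPM (-1.23, SE 0.11, edgeR adjusted p 4.44e-05).

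Klk7 and Klk5 encode the kallikreins that process cathelicidin. Klk7 rose in mouse from 98.3 to 470.3 CPM up to 1493 to 1632 CPM (2.18, SE 0.41, edgeR adjusted p 0.00169), and in spiny mouse from 449 to 704 CPM up to 1153 to 1654 CPM (1.31, SE 0.18, edgeR adjusted p 0.000295). Klk5 was not called in mouse (0.66, SE 0.40, edgeR adjusted p 0.171) or in spiny mouse (-0.43, SE 0.17, edgeR adjusted p 0.0533). Klk14, a kallikrein that shares 22.6% of its mouse exon bases with another gene, had at most 0.407 CPM in untreated and 16.5 to 32.5 CPM in treated mouse skin, and 1.10 to 2.46 CPM in all spiny mouse samples (difference -7.62, SE 0.58). With 10, 2, 0 and 2 untreated counts it passed the mouse filter through its treated samples, so no p-value is given.

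Iron handling, on which Lcn2 and Ltf bear, was read from a list of 12 with 11 tested in each species, 4 higher and 4 lower in mouse and 5 higher and 1 lower in spiny mouse. The median log2 changes of this list were -0.43 and 0.22, and the called share over all genes was 61.2% and 55.1%. Slc40a1, the iron exporter ferroportin, changed in opposite directions. It rose in mouse from 52.6 to 61.4 CPM up to 253 to 271 CPM (2.22, SE 0.10, edgeR adjusted p 2.17e-06) and fell in spiny mouse from 126 to 317 CPM down to 47.6 to 118 CPM (-1.56, SE 0.39, edgeR adjusted p 0.00802), and the species differed by -3.78 (SE 0.44, edgeR adjusted p 8.6e-06). The 4 lists together held 31 higher and 11 lower of 67 tested genes in mouse, 30 higher and 9 lower of 58 in spiny mouse, and 14 higher and 14 lower of 55 for the species difference. The called share over all genes was 61.2%, 55.1% and 46.1% in these comparisons.

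Markers of the cell types in skin were summed in each sample. Keratinocyte markers were present in every sample, and their summed level was 10170 to 18380 CPM in untreated and 31610 to 44950 CPM in treated mouse skin, and 17270 to 20830 CPM and 32300 to 40560 CPM in spiny mouse, with 7 and 8 of the 11 markers called higher. Much of the treated mouse sum was keratins, with Krt14 at 7477 to 10980, Krt6a at 2937 to 4230 and Krt16 at 2525 to 4204 CPM. Krt10, Trp63, Itga6 and Itgb4 were not called in mouse, nor Krt10, Trp63 and Dsp in spiny mouse. The sum is therefore not a measure of keratinocyte number. Untreated mouse replicate 2, the lowest sample for Slpi, Lcn2, Saa3, Defb1 and Defb6, had the lowest keratinocyte sum of all 16 samples. The same sample stood apart in its hair follicle markers, at 2518 CPM against 10.7 to 40.6 CPM in the other untreated mouse samples and 21740 to 23720 CPM in treated mouse skin. In spiny mouse the hair follicle sum was 1170 to 11960 CPM in untreated and 204 to 3480 CPM in treated skin. Skeletal muscle markers were lower in treated skin of both species, called lower for 8 of 8 in mouse and 7 of 7 tested in spiny mouse. Adipocyte markers were called lower for 3 of 5 in mouse and 4 of 5 in spiny mouse, where they summed to 1155 to 1321 CPM in untreated and 439 to 636 CPM in treated skin. Untreated mouse replicate 2 was the lowest of its group for adipocyte markers (195 CPM, the others 912 to 1518) and for sebaceous gland markers (511 CPM, the others 820 to 1090). Of the 7 sebaceous gland markers 2 were called higher and 2 lower in mouse and 0 in spiny mouse. Beside these marker counts, 25.9% of all tested genes were higher and 35.3% lower in mouse, and 28.2% and 26.9% in spiny mouse. The part of tissue make-up in the changes of the antimicrobial genes was not tested.

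Neutrophil markers were read from a list of 12. In mouse their sum went from 27.0 to 29.7 CPM up to 117 to 136 CPM, with 4 of 6 tested called higher. Padi4 held 84.5 to 97.9 CPM of the treated mouse sum. The chemokine receptor gene Cxcr2 went from 0.219 to 2.67 CPM up to 12.1 to 15.1 CPM, and Csf3r and Mmp8 were also called higher (log2 changes 0.80 and 1.35), while Itgam and Cd177 were not called. Of the mouse Itgam exon bases 68.7% overlap another gene, which lowers its count. Ly6g was at 0 in all treated mouse samples, and Mpo, Elane and Ngp had at most 0.228 CPM in any mouse sample, and Fpr1 at most 0.668 CPM and Retnlg at most 0.780 CPM. In spiny mouse the sum went from 75.3 to 91.9 CPM up to 127 to 164 CPM, with 5 of 8 tested called higher. Cxcr2 went from 0.397 to 0.987 CPM up to 12.96 to 17.7 CPM, the formyl peptide receptor gene Fpr1 from 0.0397 to 0.229 CPM up to 3.43 to 7.65 CPM, and the receptor gene Csf3r from 5.08 to 9.004 CPM up to 38.7 to 52.2 CPM, with no overlap of their exons with another gene. Ngp was called higher (log2 change 2.15), and Mmp8, Padi4 and Itgam were not called. Mpo there went from at most 0.137 CPM to 1.54 to 5.53 CPM, although 62.7% of its exon bases overlap another gene. Elane had at most 0.220 CPM, Retnlg was at 0 in all 8 samples with 85.6% of its exon bases overlapping another gene, and Ly6g and Cd177 were not matched. Macrophage markers summed to 476 to 1097 CPM in untreated and 696 to 886 CPM in treated mouse skin, and to 626 to 729 and 1191 to 1838 CPM in spiny mouse, and T cell markers to 20.7 to 34.6 and 10.9 to 13.4 CPM in mouse and to 27.7 to 45.3 and 47.7 to 95.3 CPM in spiny mouse. Whether these cells had a part in the rise of Pglyrp1, Trem1 or Il1b in spiny mouse was not tested.

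The genes most like the members were sought by Pearson correlation of log2 CPM over the 8 samples of a species. These correlations describe samples that share 1 treatment contrast, and they are given with no test. In mouse Slpi was most like Puf60 (r 0.9992), Lcn2 most like Clu (0.9989) and Saa3 most like Dclre1b (0.9973). In spiny mouse Slpi was most like S100a8 (0.9986) and Ltf most like Wdr37 (0.9577). More than 1000 genes correlated with Slpi above 0.95 in each species.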

How the data were processed

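The authors deposited raw fragment counts per gene, 1 table for each species, in which featureCounts 2.0.3 counted pairs whose 2 ends both mapped, per the file headers. Mouse reads were counted on GRCm39 with Ensembl 108 and spiny mouse reads on AcoCah2. Trim Galore and HISAT2 are named in the submitters' processing notes. Counting was run with no strand setting, so antisense partners cannot be told apart, and fragments on several genes or places were not counted, which lowers the counts of overlapping models.

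Columns of untreated samples carry a code that the labels do not explain and were matched to them by species letter and replicate number, and that of mouse replicate 2 has an unexplained suffix. Mouse identifiers were named from GENCODE M39, which gave symbols to 56236 and none to 744. Promoter windows came from the GRCm39 reference with that annotation, 1 canonical start for each gene. Counts were filtered (filterByExpr), scaled (TMM) and tested with edgeR 4.0.16 (quasi-likelihood, R 4.3.3), adjusted by Benjamini-Hochberg over the genes that passed the filter, in each species and for the species by treatment interaction over 13656 shared symbols. Each listed result was recomputed under other normalizations, filters and tests (DESeq2 1.42.0 among them) and without each replicate. On simulated counts, the test recovered 33.0% of log2 changes of 1 in mouse, 84% in spiny mouse and 51.9% for the interaction. Of changes of 2 it recovered 81.3%, 92.9% and 91.5%. Far fewer genes were changed there than were called in the data (97 by 1 and 96 by 2 of 19318 in mouse). These shares therefore do not give the power of the fits on the data. Across 24 replicate pairs, the chi-square per degree of freedom over genes with at least 20 counts was 11.35 to 165.8, above sampling noise in each pair, and all 16 samples were kept.

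The genes and lists were chosen with earlier results of these data known. Named genes outside the 10 were, in each list and comparison, among the 3 largest rises or falls called, or stood in the rule by symbol (Il17a, Il17c, Il17f, Il22, Il1b, Tnf, Nfkbiz, Trem1, Slc22a17, Klk5, Klk7, Elane, Ly6g, Mpo and Ngp). Defb14 in mouse and the marker genes Padi4, Cxcr2, Csf3r, Mmp8, Itgam, Fpr1, Retnlg and Cd177 were named after their values were seen. So were the keratinocyte markers Krt14, Krt6a, Krt16, Krt10, Trp63, Itga6, Itgb4 and Dsp. For likeness, genes with a mean of at least 10 CPM were compared.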

Additional observations from a re-analysis of the deposited data

Results flagged for a closer look

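In groups of 4, a sample was singled out where its gap to the nearest other took most of the group's range by Dixon's criterion, which chance gives in about 1 of 20 groups. Of 153 groups examined, 14 were singled out. Treated spiny mouse replicate 3 was the highest of its group for Lcn2 (27.0 CPM, the others 12.2 to 14.01), Ltf (41.7 CPM, the others 8.504 to 10.4), Ngp (3.99 CPM, the others 0.393 to 0.731) and the endocytic receptor Lrp2 (0.220 CPM, the others 0.0455 to 0.0715), and the lowest for Osm (10.8 CPM, the others 20.9 to 22.5). Untreated mouse replicate 2 was the highest for S100a7a (5.09 CPM, the others 0.326 to 1.002), Slc22a17 (21.0 CPM, the others 12.3 to 12.8) and the summed hair follicle markers (2518 CPM, the others 10.7 to 40.6), and the lowest for Pglyrp3 (2.19 CPM, the others 6.04 to 6.79). Other singled-out samples were Defb3 in untreated mouse replicate 4 (0.364 CPM) and in treated mouse replicate 3 (4.04 CPM), Slpi in treated spiny mouse replicate 1 (376.5 CPM, the others 349 to 350.3), Wfdc12 in treated mouse replicate 4 (3.30 CPM, the others 6.55 to 6.88) and Trem1 in treated mouse replicate 4 (2.19 CPM, the others 0.571 to 0.764).

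The treatment change was called different between the species, as spiny mouse minus mouse on the log2 scale, for 25 genes named by the rule. The rule itself took up genes called in this comparison, so their number is no result about the lists. Over all 13656 symbols in this fit 46.1% were called. Pglyrp1 (4.32) and Lcn2 (-1.53) were the members among the 25 genes. Of the other antimicrobial genes the difference was 1.17 for Lyz1, -7.45 for S100a7a, -3.86 for Wfdc12, -1.72 for S100a8 and -2.398 for Pglyrp3. Of the inducing signals it was 4.70 for Osm, 3.83 for Il1b, 1.52 for Tnf, -1.86 for Vdr, -1.31 for Il1a, -1.27 for Zc3h12a and -0.56 for Nfkbiz. Of the receptors and proteases it was 3.71 for Trem1, 1.65 for Tlr4, -7.62 for Klk14, -5.80 for Tgm3 and -5.64 for Lrp2. The Lrp2 value rests on low counts, with 0.0455 to 0.220 CPM in treated spiny mouse skin and 4, 15, 9 and 1 counts in untreated mouse skin. Of the iron genes the difference was 1.58 for Cp, 1.27 for Slc11a1, 1.18 for Fth1, 1.13 for Ftl1 (34.6% of whose mouse exon bases overlap other genes), -3.78 for Slc40a1 and -0.60 for Tfrc.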

How the results depend on the processing

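Leaving out each replicate in turn gave 11062 to 13944 called genes in mouse, 7258 to 8132 in spiny mouse and 5746 to 7711 for the species difference. Called antimicrobial genes numbered 4 to 5, 5 to 7 and 2 to 3 in these fits, and called genes of the 4 wider lists 36 to 54, 37 to 42 and 25 to 39. Under the other 8 settings the called antimicrobial genes numbered 4, 5 to 7 and 2 to 3. None of the recomputed counts moved past 1.5 times. Of the recomputed changes of single antimicrobial genes 290 kept their side of the threshold, 8 gained and 6 lost the call. A change called in neither fit could reverse its sign and still be among the 290. Pglyrp1 in mouse did so, at -0.08 with all samples and 0.21 without untreated replicate 3. The replicate numbers did not pair the samples (same-number correlations of deviations -0.01 to 0.02 in mouse and -0.53 to -0.20 in spiny mouse, with 0 samples closest to their own number). With the replicate block 4, 5 and 2 antimicrobial genes were called, and Camp in spiny mouse (-0.77) was not. The block gave 11246, 7418 and 5723 called genes in all. Under the DESeq2, upper-quartile and library-size scalings the median of all mouse genes moved by 0.10, -0.20 and -0.24, and that of the species difference by -0.10, 0.16 and 0.22. Scaling RPKM to the sum over all genes multiplied the levels by 2.49 to 3.58. Depth limits Ltf and Camp in mouse and Saa3 in spiny mouse.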
